A study of Homo sapiens with 6 samples.

Results

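The regions described here carried a peak of transcription initiation in both lists made from 1M K562 cells and none in the list made from 250k cells. Peaks of 3 lists on chromosomes 1 to 22 and X were joined wherever they overlapped by 1 bp or more, which gave 34308 regions. Of these, 6289 held peaks of both 1M lists and no 250k peak, and they are called the 1M-shared regions. They held 6648 of the 24707 peaks of the PRO-seq 1M list (26.9%) and 6934 of the 38177 peaks of the qPRO-seq 1M list (18.2%). The 250k list held 15562 peaks. Among the 18141 regions with peaks of both 1M lists, the 1M-shared regions made up 34.7%, a share that the rule itself sets. They were thus chosen by the authors' peak calls in the 3 lists, and those calls support nothing below. The other 11852 were found in all 3 lists, 12700 further regions had peaks of the qPRO-seq 1M list only and 2108 of the PRO-seq 1M list only.

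The study compared a quick form of precision run-on sequencing (qPRO-seq) with the published form (PRO-seq). All 6 libraries came from K562, an established human leukaemia line with erythroid character that the labels call lymphoblastoid, with no treatment and with replicates at least 3 passages apart. The PRO-seq 1M group (2 replicates) had an input of 1M permeabilized cells, 3 affinity purifications and 11 PCR cycles, and the qPRO-seq 1M group (2 replicates) had the same input and cycles with 1 purification. The qPRO-seq 250k group (2 replicates) had 250k cells, 1 purification and 14 PCR cycles, so that cell input and cycle number cannot be told apart between the 1M and 250k lists. Each group had 1 peak list for both replicates. There was thus no replicate value and no test across samples. The 95% intervals given below cover counting error only (Wilson for a share, Newcombe for a difference of shares), and neighbouring regions are not independent. The read depth behind each list is unknown. Start peaks stood at 9, 10 and 9 of 10 erythroid marker genes in the PRO-seq 1M, qPRO-seq 1M and 250k lists. Of 10 marker genes of other blood lineages, 1 had a start peak in each of the 3 lists and the other 9 had none. A peak at any annotated start of a gene was counted. For 2 of the 9 erythroid genes at 250k, a 1M-shared region stood at one start and the 250k peak at another, 1130 bp away at TAL1 and 250010 bp away at HBG2. For these 2 genes the 250k count thus does not mean a 250k peak at the start under the 1M-shared region.

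In a run-on assay, RNA polymerases already at work in permeabilized cells add biotin-tagged nucleotides to the RNA they are making, and that RNA is purified and sequenced. Active promoters and active enhancers both start transcription in opposite directions, and dREG is a classifier that calls such sites from run-on reads on both strands. Most human promoters that are active in many tissues lie in CpG islands, stretches rich in G and C in which the CpG dinucleotide is kept, whereas enhancers and tissue-restricted promoters are more often poor in CpG.

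The promoters of 5 genes are printed to show the range of sequence under the 1M-shared regions. CHAMP1 and MR1 were among the 4 near-start regions with the highest score percentiles and differ widely in base composition, and ZFPM1, HFE and GYPC are genes of red cell biology and iron handling. Each runs from 250 bases before to 50 bases from the start, 5′ to 3′ in the direction of the gene (all 5 on the + strand), from RefSeq on GRCh38.p14. Capitals mark a GATA motif (AGATAA or TGATAA), an ETS motif (CCGGAAG) or a CCAAT box on either strand.
CHAMP1, chr13:114314253-114314552: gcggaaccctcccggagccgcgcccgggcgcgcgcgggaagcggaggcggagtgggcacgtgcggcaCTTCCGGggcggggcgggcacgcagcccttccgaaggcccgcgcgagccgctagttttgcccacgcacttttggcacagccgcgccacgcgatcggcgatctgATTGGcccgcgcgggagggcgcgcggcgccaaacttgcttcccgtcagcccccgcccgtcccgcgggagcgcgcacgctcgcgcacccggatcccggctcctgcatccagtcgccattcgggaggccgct
MR1, chr1:181033733-181034032: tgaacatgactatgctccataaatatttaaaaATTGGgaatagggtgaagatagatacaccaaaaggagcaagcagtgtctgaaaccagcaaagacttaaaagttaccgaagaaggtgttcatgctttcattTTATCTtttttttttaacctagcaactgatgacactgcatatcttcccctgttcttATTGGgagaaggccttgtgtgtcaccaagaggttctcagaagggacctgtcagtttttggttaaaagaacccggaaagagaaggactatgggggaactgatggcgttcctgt
ZFPM1, chr16:88453030-88453329: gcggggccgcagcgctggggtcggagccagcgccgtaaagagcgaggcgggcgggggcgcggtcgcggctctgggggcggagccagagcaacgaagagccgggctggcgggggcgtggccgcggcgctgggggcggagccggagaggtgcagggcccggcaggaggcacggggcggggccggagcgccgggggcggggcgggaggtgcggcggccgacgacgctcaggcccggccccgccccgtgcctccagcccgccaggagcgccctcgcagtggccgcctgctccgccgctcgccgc
HFE, chr6:26087179-26087478: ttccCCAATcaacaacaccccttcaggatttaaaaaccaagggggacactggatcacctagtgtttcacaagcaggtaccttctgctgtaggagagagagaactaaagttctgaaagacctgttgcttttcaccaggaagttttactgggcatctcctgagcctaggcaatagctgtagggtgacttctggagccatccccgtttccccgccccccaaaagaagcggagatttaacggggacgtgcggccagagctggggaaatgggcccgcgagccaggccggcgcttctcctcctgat
GYPC, chr2:126655908-126656207: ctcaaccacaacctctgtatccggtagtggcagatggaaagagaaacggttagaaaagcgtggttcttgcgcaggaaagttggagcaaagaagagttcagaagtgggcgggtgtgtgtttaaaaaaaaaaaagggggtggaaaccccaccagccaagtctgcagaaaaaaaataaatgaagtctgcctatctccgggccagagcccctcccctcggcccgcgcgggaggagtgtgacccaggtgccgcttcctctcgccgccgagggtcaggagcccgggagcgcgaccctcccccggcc
The promoter of CHAMP1, a zinc-finger protein of chromosome alignment, was 76% G and C with a CpG observed-to-expected ratio of 1.18, an ETS motif at -183 and a CCAAT box at -80. That of MR1, which presents microbial metabolites to innate-like T cells, was 40.7% G and C with a ratio of 0.247, a GATA motif at -118 and CCAAT boxes at -218 and -62. The promoter of ZFPM1, the cofactor FOG1 of GATA1, was 83% G and C with a ratio of 0.940 and held none of these motifs in the window. HFE, whose product binds the transferrin receptor, had 54% G and C, a ratio of 0.458 and a CCAAT box at -246. GYPC, which encodes the membrane protein glycophorin C, had 57.7% G and C and a ratio of 0.725.

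The 1M-shared regions stood in the lower part of the PRO-seq 1M scores and in the middle of the qPRO-seq 1M scores. A dREG score has no unit, and each region is given by its top peak, as the score and as its percentile within its own list. In the PRO-seq 1M list the median score was 0.488 (interquartile range 0.398 to 0.618), at percentile 33.0, and in the qPRO-seq 1M list it was 0.551 (0.432 to 0.694), at percentile 50.7. The regions of all 3 lists had medians of 0.851 (percentile 74.0) and 0.862 (percentile 82.1). The lists differ in length, so the percentiles of the 2 lists are not set against each other. These values belong to the contrast that chose the regions and are a description. Among the 18141 regions of both 1M lists, the share without a 250k peak was 81.4% in the lowest decile by qPRO-seq 1M score, 34.0% in the fifth decile and 2.70% in the highest. Both percentiles were at or above the median of their list in 1104 of the 6289 regions (17.6%) and below it in 2563 (40.8%). In 10 regions both were at or above the 90th.

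**Figure D1:**
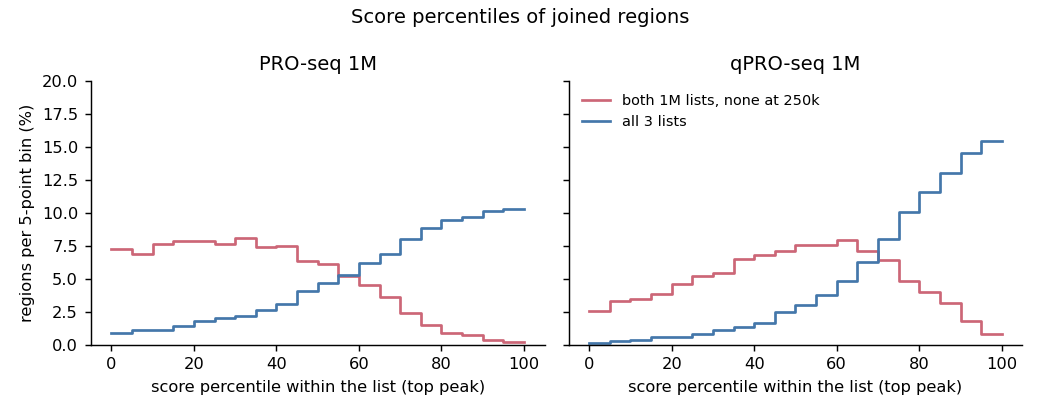
Share of regions (y axis, %) in each 5-point bin of the score percentile of the top peak (x axis), for the PRO-seq 1M list (left) and the qPRO-seq 1M list (right). The red line is the 6289 1M-shared regions, with medians at percentiles 33.0 and 50.7, and the blue line is the 11852 regions of all 3 lists, which lie to the right.

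The rule kept regions in which peaks of both 1M lists were joined, so the closeness of their positions is a description of the regions chosen. In 5513 of the 1M-shared regions (87.7%) each list held 1 peak, against 6894 of the regions of all 3 lists (58.2%). The centres of those paired peaks lay a median of 40 bp apart (interquartile range 20 to 80 bp), against 30 bp (10 to 70 bp). The scores of the 2 lists followed each other loosely across the 1M-shared regions (Pearson r 0.329, Spearman rho 0.286) and more closely across the regions of all 3 lists (r 0.640, rho 0.641). These are correlations across regions within the same pair of lists, and no p is given. The 1M-shared regions had a median width of 530 bp (420 to 670 bp), against 780 bp for the regions of all 3 lists and 370 bp for those of the qPRO-seq 1M list alone.

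By position, the 1M-shared regions lay between the other classes: fewer were at gene starts than in all 3 lists, and more than in the qPRO-seq 1M list alone. Within 500 bp of a transcript start in GENCODE 29 lay 3220 of them (51.2%, 95% interval 50.0 to 52.4%). A further 272 (4.33%) were exonic, 1379 (21.9%) intronic and 1418 (22.5%) intergenic. Of the regions of all 3 lists 76.9% were near a start, a difference of -25.7 percentage points (95% interval -27.1 to -24.2). Of those in the qPRO-seq 1M list alone 26.2% were near a start, a difference of 24.96 points (23.5 to 26.4). Regions of the PRO-seq 1M list alone were nearest in this measure, at 54.3% (difference -3.07 points, -5.52 to -0.605). Compared within deciles of the qPRO-seq 1M score, the difference from all 3 lists was -28.5 points. In the lowest decile by score 55.9% of the 1M-shared regions and 68.6% of those in all 3 lists were near a start, and in the highest decile 38.8% and 76.8%.

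**Figure D2:**
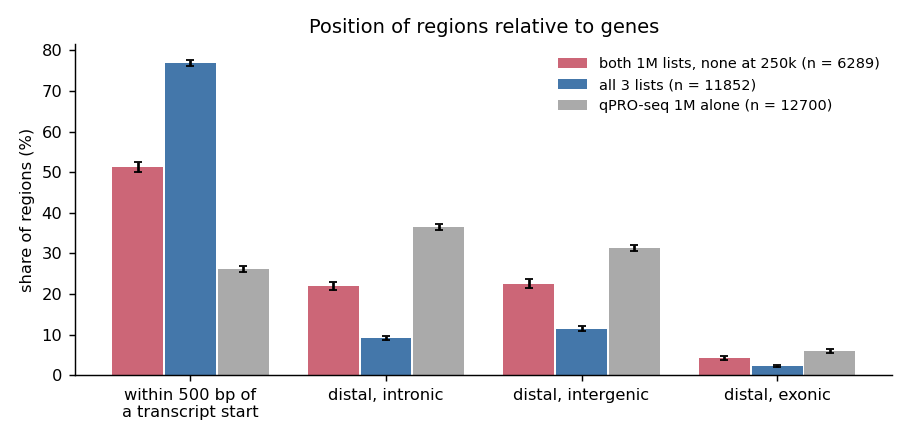
Share of regions (y axis, %) by position relative to genes, for each class of region. Bars start at 0 and error bars are Wilson 95% intervals. Near-start regions make up 51.2% of the 1M-shared regions, 76.9% of those in all 3 lists and 26.2% of those in the qPRO-seq 1M list alone.

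By mean percentile, the 1M-shared regions at gene starts were led by those at CHAMP1, AC132938.5, CTNNBIP1 and MR1, and those away from starts by regions in introns of PACS1 and of 2 noncoding genes and by one in the neighbourhood of KIT. The CHAMP1 region (chr13:114314091-114314660 on GRCh38) scored 1.17 in the PRO-seq 1M list (percentile 98.1) and 1.08 in the qPRO-seq 1M list (percentile 95.8), with the nearest 250k peak at 32360 bp. The region at CTNNBIP1, an inhibitor of beta-catenin and TCF binding (chr1:9910121-9911540), scored 1.21 and 0.972, and the MR1 region (chr1:181033571-181034620) scored 1.13 and 1.01. A region at the noncoding gene AC132938.5, inside NARF (chr17:82461831-82462420), scored 1.09 and 1.12. All 4 lay over 1 kb from a 250k peak, the AC132938.5 region the nearest at 2930 bp. The highest distal region lay in an intron of the noncoding gene AC129926.2 (chr17:27106371-27107110) and scored 1.18 (percentile 98.3) and 1.25 (percentile 99.7). The region in an intron of PACS1, a membrane-traffic adaptor (chr11:66183281-66184050), scored 1.12 and 1.29. An intergenic region 86027 bp from KIT, the stem cell factor receptor (chr4:54571041-54571890), scored 1.16 and 1.08, and one in an intron of LIFR-AS1 (chr5:38660091-38660760) scored 1.06 and 1.15. The widest 1M-shared regions spanned 1710 bp near WASF2, 1620 bp at IGF2BP1 and 1590 bp at C19orf12. Those with most peaks, 6 over both lists, were at SEC16A, SPART and STAU1.

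Most 1M-shared regions were over 10 kb from any 250k peak, as were those of the qPRO-seq 1M list alone, and a smaller set flanked one. The median distance was 16150 bp (interquartile range 790 to 65300 bp). It exceeded 10 kb in 3511 regions (55.8%) and 100 kb in 1128 (17.9%). Regions of the qPRO-seq 1M list alone had a median of 17160 bp, with 56.4% over 10 kb and 20.6% over 100 kb. For the PRO-seq 1M list alone these shares were 49.3% and 14.4%. Such distances were thus not particular to the 1M-shared regions. Within 500 bp of a 250k peak lay 1325 1M-shared regions (21.1%, 95% interval 20.1 to 22.1%), made up of 1010 of the 3220 near a start (31.4%) and 315 of the 3069 distal ones (10.3%). Of the regions in the qPRO-seq 1M list alone 16.6% were within 500 bp, 38.5% of those near a start and 8.74% of the distal ones. On the boundary of the rule, 39 1M-shared regions touched a 250k peak with no shared base. The 2 nearest by the naming rule were at ELMO2 (chr20:46406441-46407020, percentiles 83.3 and 68.7) and PDCL (chr9:122827801-122828400, percentiles 73.4 and 60.4). Just outside it, a region 63814 bp from CD28 (chr2:203641501-203642660) shared 40 bp with a 250k peak and scored 0.693, 0.836 and 0.323 in the 3 lists. The distal region farthest from any 250k peak lay on chromosome 5 (chr5:49601421-49602160), at 3197650 bp.

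**Figure D3:**
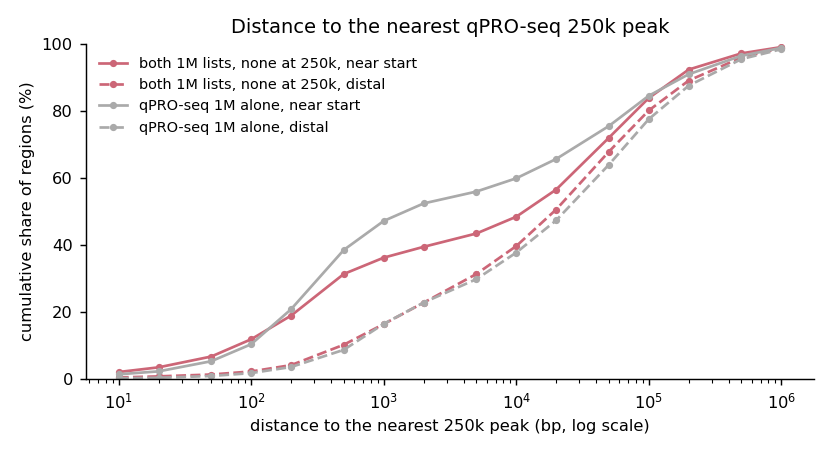
Cumulative share of regions (y axis, %) against the distance to the nearest 250k peak (x axis, bp, log scale), for near-start and distal 1M-shared regions and for regions of the qPRO-seq 1M list alone. At 500 bp the curves of the 1M-shared regions stand at 31.4% (near start) and 10.3% (distal).

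The position around protein-coding starts is given apart for the regions that flanked a 250k peak within 500 bp and for the remote ones. The rule bars a flanking region from overlapping the 250k peak beside it, which in part fixes where it can lie, so these values are a description. Where the region's centre was within 1 kb of such a start, 413 of 1033 flanking regions (40.0%, 95% interval 37.0 to 43.0%) were centred upstream of it. Their median distance from the start, over upstream and downstream regions together, was 375 bp. Of 2011 regions over 500 bp from a 250k peak, 1333 (66.3%, 64.2 to 68.3%) were upstream, and the median distance over both sides was 78 bp. In the latter set 55.5% were centred within 100 bp of the start, against 24.0% of the flanking regions. Regions of all 3 lists were 69.8% upstream at a median of 53 bp, and those of the qPRO-seq 1M list alone 46.6% upstream at a median of 431 bp. Flanking regions were near a transcript start in 76.2% of cases (73.9 to 78.4%) and the others in 44.5% (43.1 to 45.9%).

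Of the 3220 near-start regions, 2828 (87.8%) were at a protein-coding start. Starts of antisense genes lay near 347 (10.8%), of lincRNA genes near 243 (7.55%), of miRNA genes near 29 (0.901%) and of pseudogenes near 122 (3.79%). The shares in all 3 lists were close, at 11.3%, 7.42%, 1.24% and 3.23%. Regions near more than 1 kind of start count under each, and near such overlapping starts the peak cannot be given to one gene. Regions with no protein-coding start made up 12.2%, against 7.66% in all 3 lists. Starts of protein-coding genes on both strands, as in a bidirectional promoter, were near 225 (6.99%), against 13.5% in all 3 lists (difference -6.50 points, -7.59 to -5.34). In the qPRO-seq 1M list alone the share was 5.28%. Distances run from the edges of a region, and median widths differ (530, 780 and 370 bp in these 3 classes). The shares were not compared at equal width.

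At the level of genes, 2803 of 19864 protein-coding genes had a start within 500 bp of a 1M-shared region, and 1302 of them (46.5%, 95% interval 44.6 to 48.3%) also had a 250k peak at a start. Start peaks of both 1M lists were found at 10128 genes. Of these, 1486 had a start near a 1M-shared region and no 250k start peak, which is 14.7% of the 10128 and 7.48% of all genes. The 14.7% is the background for the lists below, and a list's own percentage is its share of genes with a start peak in both 1M lists.

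Erythroid, iron and red cell membrane genes all had members among the 1M-shared regions. Among erythroid regulators 3 of 21 (14.3%, 95% interval 4.98 to 34.6%) lacked a 250k start peak in this way. GATA2, TAL1, LDB1, RUNX1, TCF3 and EPOR also had a 1M-shared region at a start, over 500 bp from any 250k peak. They are not counted, because a 250k peak stood at another of their starts (4870 bp away at GATA2 and 955260 bp away at RUNX1). The region at ZFPM1 (chr16:88452551-88453350) scored 0.463 (percentile 28.9) in the PRO-seq 1M list and 0.610 (percentile 58.2) in the qPRO-seq 1M list, with the nearest 250k peak 44430 bp away. The region at CBFA2T3, the corepressor ETO2 (chr16:88976931-88977410), scored 0.431 (percentile 23.2) and 0.436 (percentile 32.6) and was 1610 bp from a 250k peak. LMO2, the bridging adaptor of TAL1 complexes, had 2 such regions, which scored 0.367 and 0.542 (chr11:33868251-33869160) and 0.374 and 0.295 (chr11:33869761-33870460). Heme synthesis, with 0 of 12 genes (upper 95% bound 24.2%), had a 250k start peak at each gene that had one in both 1M lists.

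In iron handling the count was 3 of 16 (18.8%, 6.59 to 43.0%). SLC39A14, a transporter of zinc and iron (chr8:22366841-22367540), scored 0.981 (percentile 85.8) in the PRO-seq 1M list and 0.727 (percentile 70.4) in the qPRO-seq 1M list. Its PRO-seq 1M score was the highest among the counted erythroid, iron and membrane genes, those with no 250k start peak. HFE (chr6:26087191-26088030) scored 0.694 and 0.767. TFR2, the second transferrin receptor (chr7:100642451-100643000), scored 0.522 and 0.524. Among red cell membrane genes the count was 4 of 16 (25%, 10.2 to 49.5%). TMCC2 (chr1:205227601-205228110) scored 0.820 and 0.572, and GYPC (chr2:126655531-126656290) scored 0.520 and 0.617. BCAM, the Lutheran blood group protein (chr19:44808871-44809150), scored 0.596 and 0.511. ADD2, which encodes beta-adducin of the spectrin skeleton, had 2 regions, the higher of which (chr2:70768061-70768450) scored 0.614 and 0.331. DMTN also had start peaks in both 1M lists and none at 250k, but no joined 1M-shared region near its start. The intervals of these 3 lists include 14.7%.

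Among housekeeping genes, ribosomal proteins, mitochondrial ribosomal proteins and histones lay below the background, and the other lists had intervals that include it. Ribosomal proteins counted 2 of 76 (2.63%), namely RPS26 (scores 0.743 and 0.909) and RPL26L1 (0.511 and 0.620). Mitochondrial ribosomal proteins counted 4 of 69, and replication-dependent histones 1 of 43, HIST1H4D, one of a family of near-identical copies. The upper bounds of the intervals for these 3 lists lie below 14.7%, that of mitochondrial ribosomal proteins narrowly (14.0%). Genes with a 250k peak at another of their starts are not counted, among them RPL36 (8780 bp away), RPL7A (670 bp), MRPS27 (11330 bp) and MRPL34 (1750 bp). The same rule held in the lists that follow, for example for NDUFV1, POLR2H, CDK6 and GRB2. Respiratory complex I counted 2 of 33, of which NDUFA9 scored 1.17 (percentile 98.0) and 0.932 (percentile 87.3), 109250 bp from a 250k peak. Proteasome subunits counted 4 of 39 (PSMB7, PSMD11, PSMC3 and PSMA7), Mediator and TFIID subunits 4 of 44 and RNA polymerase II subunits 1 of 11 (POLR2J). In the Mediator list MED6 scored 0.764 and 1.16, the latter at percentile 98.4. Heat shock genes counted 0 of 17 (upper 95% bound 18.4%), cyclins and their kinases 1 of 25 (CDK8), aminoacyl-tRNA synthetases 1 of 18 (QARS) and the BCR-ABL1 and STAT5 pathway 1 of 22. The last was GAB2, an adaptor of BCR-ABL1 signalling, whose region lay 520 bp from a 250k peak.

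Interleukins, solute carriers and zinc-finger genes lay above the background, the last narrowly. Interleukins and their receptors counted 7 of 21 (33.3%), among them IL21R, IL27RA, IL18 and IL15RA, which scored between 0.429 and 0.648 in the PRO-seq 1M list. Solute carriers counted 34 of 157 (21.7%), led by SLC25A15, the mitochondrial ornithine carrier (scores 0.924 and 1.03). Zinc-finger genes named ZNF counted 62 of 330 (18.8%), led by ZNF22 (0.906 and 1.05), ZNF182 (0.816 and 1.05), ZNF92 (0.883 and 0.945) and ZNF429 (0.765 and 0.923). The intervals of these 3 lists lie above 14.7%, with a lower bound of 14.9% for the ZNF genes. No allowance was made for the 26 lists compared with the background here and above, and list shares were not recomputed under the alternatives. The intervals of the Rab, potassium channel and AP-1 lists include it. Rab GTPases counted 6 of 38, led by RAB12 (scores 0.767 and 0.850), and potassium channels 3 of 13. Of the AP-1 and immediate-early genes 3 of 17 were counted: EGR1, whose region lay 320 bp from a 250k peak, BATF3 and MAFK, a small Maf partner of NFE2. The lymphoid and myeloid list counted 2 of 5, CEBPA (0.832 and 0.676) and EBF1 (0.481 and 0.552). The HOX list counted HOXA3, 1 of 5, and the collagens COL15A1, 1 of 6. Megakaryocyte genes counted 0 of 5 and protocadherins 0 of 4.

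**Figure D4:**
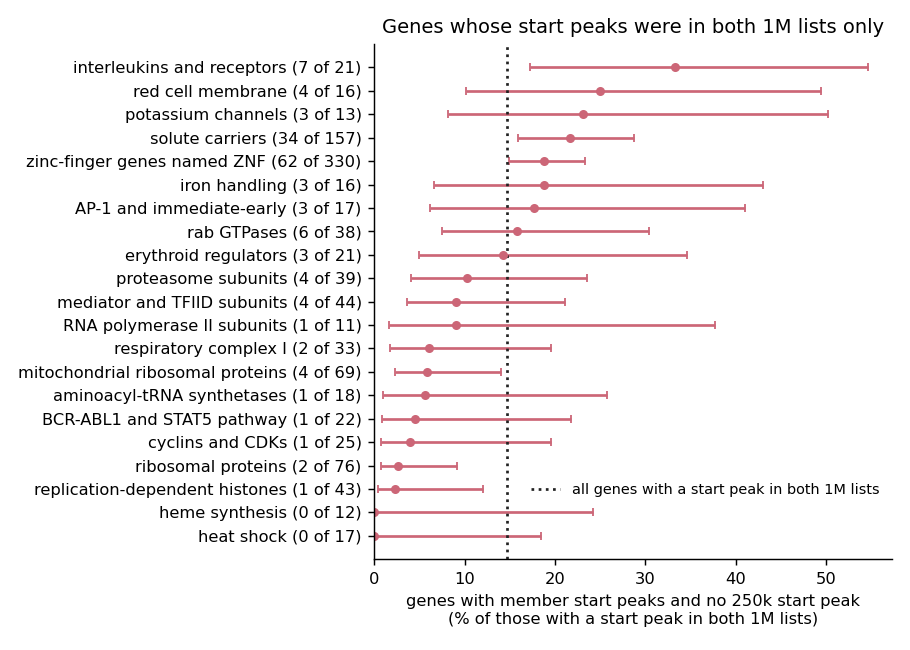
Share of genes (x axis, %) with a start near a 1M-shared region and no 250k start peak, among genes with a start peak in both 1M lists, for fixed lists with over 10 such genes. Points are shares, bars are Wilson 95% intervals, and the dotted line is the 14.7% of all 10128 genes with a start peak in both 1M lists. Ribosomal proteins (2 of 76) lie below the line, and solute carriers (34 of 157) and ZNF genes (62 of 330) above it.

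At 334 of the 2803 genes with a start near a 1M-shared region (11.9%), a 250k peak stood at one start, while a 1M-shared region over 500 bp from any 250k peak stood at another. The distance between them had a median of 3185 bp (interquartile range 855 to 15968 bp). Pairs only just over 500 bp apart were not told apart from parts of a single promoter. The 1M-shared region was downstream of the 250k peak in 215 genes (64.4%, 95% interval 59.1 to 69.3%). No share for the order of annotated starts was computed beside it. The examples, chosen after their values were seen as those of highest mean percentile, were of both orders. At SEC14L1 the 1M-shared region (chr17:77088231-77088900) scored 1.08 and 1.03 and lay 51440 bp upstream of the 250k peak. At GATAD2A, a subunit of the NuRD complex, the region (chr19:19404901-19405910) scored 0.970 and 1.31 and lay 18950 bp downstream of the 250k peak (chr19:19385551-19385950). At PSMA1, a proteasome subunit, the region (chr11:14520251-14521450) scored 1.03 and 1.02 and lay 122030 bp downstream. With its 250k peak at the other start, PSMA1 was not among the counted proteasome genes. Peaks were given to genes by distance to annotated starts alone, so either peak of a pair may belong to a neighbouring gene.

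The promoters under the 1M-shared regions were rich in G and C, as in all 3 lists, but fewer were CpG-rich. Of 34789 RefSeq promoters of 300 bases, 1818 were overlapped by a 1M-shared region and by no region of all 3 lists, and 9683 by a region of all 3 lists. The median G and C content was 67.7% in the former, 66.3% in the latter and 58.7% in all promoters. CpG-rich promoters (at least 50% G and C and an observed-to-expected ratio of at least 0.6) made up 79.4% (95% interval 77.5 to 81.2%), 89.7% and 46.9%, and 51.1% of 845 promoters under regions of the qPRO-seq 1M list alone. The difference from all 3 lists was -10.4 points (-12.4 to -8.46), and within deciles of the qPRO-seq 1M score it was -14.1 points (-18.7 to -9.49). CHAMP1 and ZFPM1, printed above, are of the CpG-rich kind, and MR1 and HFE are not.

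Motifs were searched on both strands as exact letters. A match is not a bound site. The ETS motif was in 13.9% of promoters under the 1M-shared regions, 22.9% of those under all 3 lists and 10.2% of all promoters. The difference from all 3 lists was -9.01 points (-10.8 to -7.16), and within deciles of the score it was -1.96 points, with an interval that includes 0 (-6.57 to 2.66). The cAMP response element (TGACGTCA) was in 1.93%, 3.94% and 1.84%, CCAAT in 32.1%, 37.5% and 34.6%, and the YY1 motif (AAGATGGCG) in 2.92%, 4.74% and 1.76%. For these 3 motifs too the interval of the difference from all 3 lists lay below 0, and within deciles of the score it included 0. The GATA motif was in 7.92%, 6.56% and 16.3%, a difference from all 3 lists of 1.36 points (0.101 to 2.78). That difference was 4.88 points within deciles of the score (0.747 to 9.02). It was -1.15 points in CpG-rich promoters and 4.22 in the others, both with intervals that include 0. The SP/KLF motif (GGGCGG), found in 74.3%, 75.3% and 45.0%, differed from all 3 lists by -0.974 points, with an interval that includes 0 (-3.20 to 1.17). Within CpG-rich promoters that difference was 4.30 points (2.14 to 6.31). Over all promoters, the interval also included 0 for the AP-1 motif (TGANTCA), found in 4.67%, 3.75% and 7.69%, the TATA motif (TATAAA), found in 4.62%, 4.38% and 11.6%, and the NRF1 motif, found in 2.20%, 2.93% and 1.23%.

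**Figure D5:**
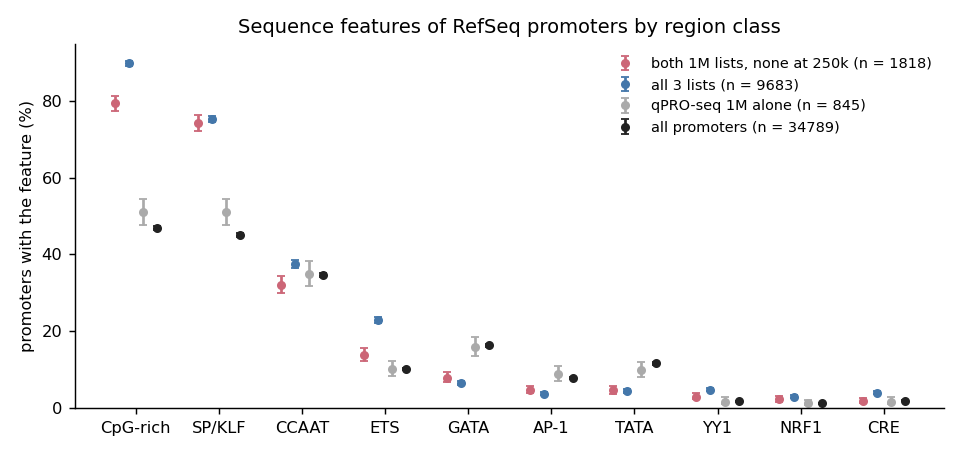
Share of RefSeq promoters (y axis, %, from 0) that are CpG-rich or hold a motif, for promoters under the 1M-shared regions, under regions of all 3 lists, under regions of the qPRO-seq 1M list alone and for all promoters. Error bars are Wilson 95% intervals. CpG-rich promoters make up 79.4%, 89.7%, 51.1% and 46.9%.

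Joined at gaps of up to 10 kb, 2638 of the 3069 distal 1M-shared regions stood alone, and no such count is given for the other classes. From the nearest transcript start, 60.2% lay within 10 kb and 6.81% beyond 50 kb, against 59.6% and 7.56% in all 3 lists. Of 1087 intronic ones inside a protein-coding gene, 673 (61.9%, 95% interval 59.0 to 64.7%) lay in a gene with a 250k start peak, against 64.3% in all 3 lists (difference -2.40 points, -6.68 to 1.92). In the qPRO-seq 1M list alone the share was 66.0% (difference -4.06 points, -7.35 to -0.833). Genes for tRNA, which RNA polymerase III transcribes, were less often near the 1M-shared regions than near those of all 3 lists. A tRNA gene lay within 500 bp of 38 distal 1M-shared regions (1.24%, 0.903 to 1.70%), of 142 distal regions of all 3 lists (5.19%, 4.42 to 6.08%, difference -3.95 points, -4.9 to -3.05) and of 49 of the qPRO-seq 1M list alone (0.523%). By chromosome, the share of the regions of both 1M lists that lacked a 250k peak ran from 32.1% on chromosome 1 to 38.2% on chromosome 22, and 22 of the 23 intervals held the share over all.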

How the data were processed

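Transcription was measured by run-on sequencing in 6 K562 libraries, in 3 groups of 2 replicates. The authors deposited 1 dREG peak list per group, with positions, a score and a p-value for each peak; per the labels, each list stands for both replicates, and how they were pooled is not given in the sources used here. The score of each peak is the authors' own, as deposited, and was used only within its list. The submitters' processing notes name hg38/GRCh38, fastp 0.20.0, Bowtie2 2.3.5.1, UMI-tools and deepTools 3.1.3, with no roles. The version and threshold of dREG are not given in the sources used here. No counts were analysed here, so depth is unknown.

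Peaks were joined and classed with Python 3.11.15, numpy 2.4.6 and pandas 2.3.3, and the code was tested on simulated data. Positions came from GENCODE 29, with a window of 500 bp round starts, and sequences from RefSeq promoters (GRCh38.p14). Windows round peak centres had been planned, but no genome sequence was used here. Promoters under a region of all 3 lists were counted there first. A gene was counted where it had start peaks in both 1M lists, a start near a 1M-shared region and no 250k start peak. The regions and the 26 gene lists were chosen with earlier results of these data known. Named were the 4 near-start and 4 distal regions of highest mean percentile, the 3 widest, the 3 with most peaks, those farthest from and nearest to a 250k peak, and in each list all counted genes up to 5, otherwise 4, with all of the erythroid, heme, iron and red cell membrane lists. Some of these are given as counts only, and a few named by the rule are not reported here. Alternatives were stricter score and p limits, equal list lengths, other joins and windows, and deciles of the score.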

Additional observations from a re-analysis of the deposited data

Results flagged for a closer look

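On sequences outside chromosomes 1 to 22 and X, which the comparisons do not use, 29 regions had peaks of both 1M lists and none at 250k, and 20 had peaks of all 3 lists. The 29 were flagged because they are a signal in data not analysed above. They made up 59.2% of the regions of both 1M lists there (95% Wilson interval 45.3 to 71.8%), against 34.7% on the chromosomes used. Of the 29, 17 were on alternate scaffolds, 8 of these of chromosome 6, and 12 were on unplaced or unlocalised scaffolds.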

How the results depend on the processing

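Each group had 1 list and no test was run, so a share or difference is compared with its main interval, and a count is taken as close when within 1.5 times the main count. No paired analysis was possible because each group had a single list, and for the same reason no replicate could be left out. The planned window of 500 bp round peak centres was not run, as no genome sequence was used here. Over the main results, 53 of 90 recomputed values stayed within these limits, 37 moved out of them and 0 changed sign; among single motifs and other values 189 of 232 stayed, 34 moved and 9 changed sign. The cause of these moves was not tested.

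With peaks of p up to 0.01, the near-start share was 55.7%, its difference from all 3 lists -24.1 points and from the qPRO-seq 1M list alone 27.1, the CpG-rich share 83.1% and its difference -7.17. With peaks that reached the median score of their list, 3700 regions met the rule, not all of them among the 6289, since weaker 250k peaks also drop out, with a near-start share of 72.0%, differences of -13.4 and 36.6 points, a CpG-rich share of 88.4%, a CpG-rich difference of -3.56 and an ETS difference of -5.12. With lists cut to equal length, 1375 regions and 467 genes met the rule, with a near-start share of 55.0%, a difference of 27.7 points from the qPRO-seq 1M list alone and a CpG-rich share of 81.5%. Joining peaks up to 100 bp apart gave 46.0% near a start and -30.7 points against all 3 lists, and up to 500 bp apart 43.7%, -33.8 and 27.7 points. Regions with no 250k peak within 1000 bp gave 44.5%, -32.4 and 18.2 points. A start window of 1000 bp gave 58.3%, -21.6 and 21.4 points, and protein-coding starts alone 45.0%. Within deciles of the score the near-start differences were -28.5 and 27.6 points, the CpG-rich difference -14.1 and the ETS difference -1.96. Chosen after seeing the data, positions by peak centre gave 43.1%, -29.2 and 22.7 points, protein-coding promoters a CpG-rich share of 81.9%, and joining touching peaks 6109 regions.

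The following 3 motif differences from all 3 lists, whose main intervals include 0, changed sign. SP/KLF turned to 1.00 (p up to 0.01), 2.56 (median score), 0.649 (equal length), 0.724 (centres within 100 bp) and 1.36 points (protein-coding promoters). NRF1 turned to 0.321 (median score), and TATA to -1.07 (median score), -0.0923 (centres) and -0.114 (deciles). The gene count of 1486 became 1823 at p up to 0.01, of which 1175 were shared with the 1486, 2128 at the median score, of which 453 were shared, and 467 with equal length, of which 464 were shared. Of the 10 named erythroid, iron and membrane genes, 8 were kept at p up to 0.01 (LMO2 and CBFA2T3 lost), 3 at the median score, 2 with equal length (SLC39A14 and HFE), 9 with centres within 100 bp (LMO2 lost) and 10 in the others.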

Other observations

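The largest run of distal 1M-shared regions held 5 in steps of up to 10 kb, in and beside POM121L2 on chromosome 6 (chr6:27280211-27290960), with no 250k peak inside, and 3 of the 5 were within 500 bp of a tRNA gene. A run of 4 lay 14368 bp from NBPF1 on chromosome 1 (chr1:16540361-16547950), 2 of them near a tRNA gene. Another run of 4 lay 8085 bp from B4GALNT4 on chromosome 11 (chr11:350481-361710), with 2 peaks of the 250k list inside its span and no tRNA gene near. By host gene, 852 genes held 1 intronic 1M-shared region and 105 held 2. STEAP1B held 5, and ALDH1A2, CUX1, GSE1, POM121L2 and TSHZ2 held 4 each. These genes and runs were picked after their values were seen.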
